A study of Homo sapiens with 6 samples.

Results

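Collagen chains and the enzymes that modify them were followed in DU-145, an established human prostate cancer cell line made to express, when a tetracycline is given, a short hairpin RNA against the transmembrane mucin MUC1. Members were chosen by name and by measured read counts in the same libraries: genes whose symbol is that of a collagen alpha chain, COL17A1 left out, or of a lysyl oxidase (LOX, LOXL1 to LOXL4), a prolyl 4-hydroxylase subunit (P4HA1 to P4HA3), a prolyl 3-hydroxylase family protein (P3H1 to P3H4), a lysyl hydroxylase (PLOD1 to PLOD3) or the collagen chaperone SERPINH1, with at least 10 reads in at least 3 libraries. By this rule 49 of 59 matching genes, of 60662 genes in the table, were members, namely 33 collagen chains, 15 enzyme-family proteins and the chaperone. Polyadenylated RNA was sequenced from 3 cultures given vehicle (DOX-negative) and 3 given doxycycline, DOX (DOX-positive), for 7 days. Cells of both arms carried the hairpin vector and both were stimulated for 24 hours with 10 ng/ml of the cytokine interferon-gamma (IFN-gamma). The comparison is therefore of DOX and the hairpin together, within IFN-gamma-treated cells of 1 line. A control hairpin, DOX without a hairpin and unstimulated cells were not analysed here.

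As background, collagens are trimers of alpha chains. In the endoplasmic reticulum their prolines and lysines are hydroxylated and the trimer is held by SERPINH1 (HSP47) until export, and outside the cell lysyl oxidases crosslink the fibrils or networks. Carcinoma cells make basement membrane collagens and many of the modifying enzymes themselves, whereas fibroblasts make most fibrillar collagen of a tumour. In fibroblasts IFN-gamma is known to lower transcription of the collagen I genes through RFX5 and CIITA.

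Libraries held 87739734 to 150921436 reads, and a count of 0 allows up to 3 reads, or 0.0204 to 0.0328 CPM (a gene's reads relative to the library's TMM-scaled total). These limits cover counting error only. MUC1 fell from 21.5 ± 0.963 to 1.39 ± 0.123 CPM (SD, n = 3), and its ranges of 20.4 to 22.2 and 1.31 to 1.53 CPM matched the labels. All 5 epithelial markers were present, with a summed level of 813 to 864 CPM in DOX-negative and 2261 to 2350 CPM in DOX-positive libraries, and their part in the results below was not tested. Of 4 androgen-driven prostate markers, 3 were under 1 CPM (KLK3 had no read), as is known of this line. Of 9 fibroblast markers, 7 were under 1 CPM and LUM had no read. The fibroblast list summed to 8.61 to 9.71 CPM in DOX-negative and 6.52 to 6.85 CPM in DOX-positive libraries, and it includes the members COL1A1 and COL3A1. All 3 endothelial and all 3 leukocyte markers were under 1 CPM. In bulk RNA, fewer cells expressing a gene and less RNA per cell cannot be told apart.

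Collagen chains were mostly lower in DOX-positive cells, while PLOD2, P3H2, LOX and LOXL2 were higher. Of the 49 members, 48 passed the filter and were fitted with edgeR among all genes, and the test was read for 41. The other 8, among them COL3A1, which failed the filter, were given no call and are termed untested. For these, 1 group alone had all 3 of its libraries at the read minimum. The test called 11 members higher and 21 lower and left 9 uncalled, at a Benjamini-Hochberg adjusted p of 0.05 over 24695 genes. Over all of those genes 56.5% were called, 27.6% higher and 28.9% lower. The 26.8% of tested members called higher was near that background, and the 51.2% called lower was above it. Of the 15279 genes that reached 1 CPM in 3 libraries, 37.6% were called higher and 36.3% lower, against 10 and 20 of the 34 members that did. Changes of at least 2-fold were called in 3 members upward and 5 downward, beside 3.56% and 9.38% of all genes tested. The libraries of the groups did not overlap for 11 higher and 22 lower members, beside 29.8% and 32.6% of all genes tested (62.4% in either direction). The members' log2 changes (DOX-positive over DOX-negative) ran from -3.11 to 2.30 with a median of -0.37, against -0.04 over all genes.

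Chains and enzymes differed in their counts. Of 25 tested chains, 3 were called higher and 15 lower, with a median log2 change of -0.49. Among enzyme-family proteins and the chaperone, 16 in all, 8 were higher and 6 lower, with a median of 0.01. Over all genes tested 27.6% were called higher and 28.9% lower. Of genes that reached 1 CPM in 3 libraries, the shares were 37.6% and 36.3%. The 6 lower of 16 were thus near the share at 1 CPM, and the 15 lower of 25 chains were above both shares. The difference between the sets was not tested. Summed over their 33 members, the chains held 648 ± 9.54 CPM in DOX-negative and 485 ± 9.09 CPM in DOX-positive cells, and the enzymes and chaperone 1442 ± 45.8 and 2173 ± 47.0 CPM (SD, n = 3). These sums are not scaled by gene length. Most of the rise in the enzyme sum was PLOD2 alone, which went from 883 ± 45.9 to 1506 ± 44.2 CPM. Of the members' summed CPM, chains made up 30.6% to 31.5% in DOX-negative and 18.1% to 18.5% in DOX-positive libraries. The groups did not overlap in this share of the chains, which no test was run on and which the rise of PLOD2 also lowers.

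**Figure D1:**
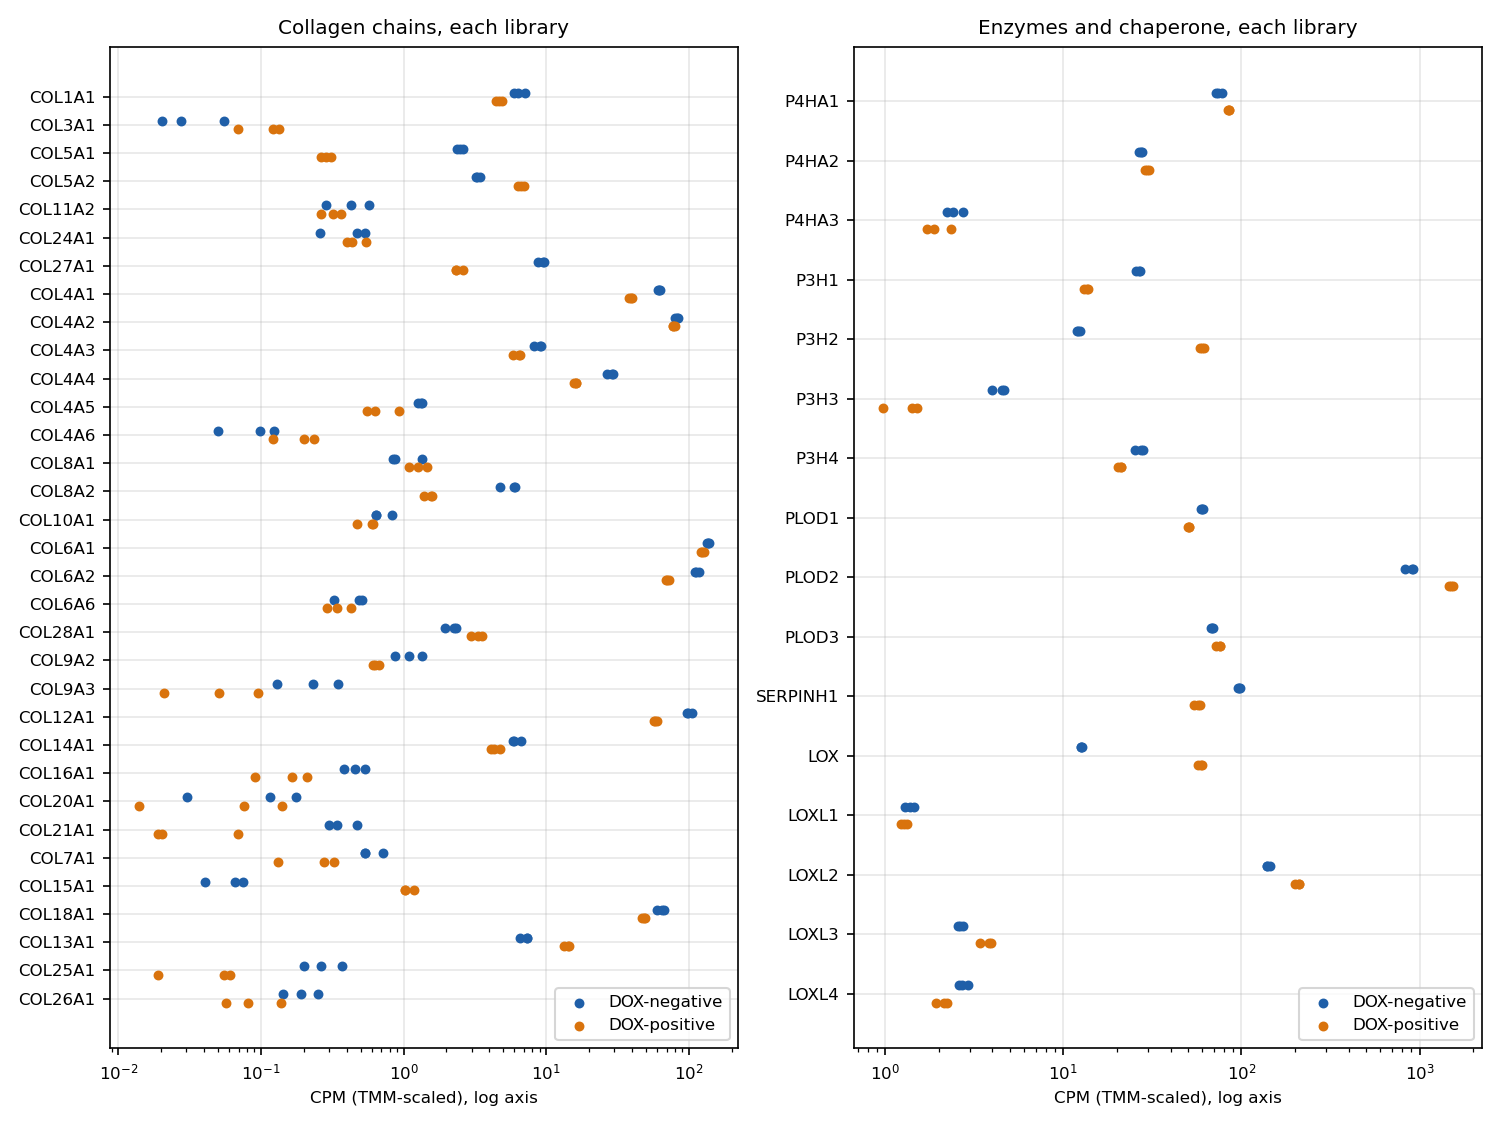
Level of each of the 49 members in each library (x axis, CPM on a log scale, TMM-scaled), with collagen chains on the left and enzymes with the chaperone on the right; each point is 1 library. PLOD2, at 831 to 917 CPM in DOX-negative and 1461 to 1549 CPM in DOX-positive libraries, stands above every other member, and COL5A1 and COL27A1 show wide gaps between groups.

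Type V collagen, which co-assembles with collagen I and governs how fibrils start, split between its chains. COL5A1 (ENSG00000130635.16, chromosome 9, 134641774 to 134844843, plus strand, GRCh38) stood at 2.51, 2.62 and 2.38 CPM in DOX-negative and 0.285, 0.311 and 0.262 CPM in DOX-positive libraries. It was 8.74-fold lower, with a log2 change of -3.11 (SE 0.17, edgeR adjusted p = 1.19e-10), the lowest among tested members. COL5A2 (ENSG00000204262.14, chromosome 2, 189031896 to 189225312, minus strand), whose chain joins COL5A1 in the usual trimer, went the other way, from 3.46, 3.28 and 3.23 CPM to 6.67, 6.37 and 6.98 CPM. It was 2.01-fold higher, with a log2 change of 1.003 (SE 0.08, edgeR adjusted p = 2.88e-08). For both genes the groups lay far apart relative to their spread. COL5A3, the remaining type V chain gene, had 0, 6 and 0 reads in DOX-negative and 6, 16 and 13 reads in DOX-positive libraries and was not a member.

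Among the other fibril-forming chains, COL27A1 and COL1A1 fell. COL27A1, a fibrillar collagen best known from cartilage (ENSG00000196739.15, chromosome 9, 114155560 to 114312511, plus strand), read 9.45, 9.70 and 8.79 CPM in DOX-negative and 2.61, 2.34 and 2.35 CPM in DOX-positive libraries. This was 3.83-fold lower, a log2 change of -1.94 (SE 0.08, edgeR adjusted p = 7.34e-12). COL1A1, the main chain of collagen I, read 7.07, 6.38 and 5.98 CPM in DOX-negative and 4.45, 4.89 and 4.67 CPM in DOX-positive libraries. Its decrease was smaller, with a log2 change of -0.47 (SE 0.09, edgeR adjusted p = 0.000181), and the groups did not overlap. COL1A2, its usual partner chain, had 2, 6 and 5 reads in DOX-negative and 4, 2 and 8 reads in DOX-positive libraries and was not a member. COL11A2 (log2 change -0.45, SE 0.30, edgeR adjusted p = 0.207) and COL24A1 (0.15, SE 0.29, adjusted p = 0.688), both under 1 CPM, did not pass the test and overlapped between groups. COL3A1 had 2, 4 and 5 reads in DOX-negative and 14, 10 and 12 reads in DOX-positive libraries and is a description only.

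Network-forming chains make up the sheet of basement membranes (collagen IV) and related lattices (types VIII and X). Of 8 tested, 5 were called lower, none higher and 3 uncalled, with a median log2 change of -0.58. Over all genes tested 28.9% were called lower, and 36.3% of those reaching 1 CPM in 3 libraries. COL4A1 (ENSG00000187498.16, chromosome 13, 110148963 to 110307233, minus strand) and COL4A2 (ENSG00000134871.19, chromosome 13, 110305812 to 110513209, plus strand) encode the common collagen IV trimer. COL4A1 read 61.9, 60.5 and 62.5 CPM in DOX-negative and 38.3, 39.2 and 40.0 CPM in DOX-positive libraries. It was 1.57-fold lower, with a log2 change of -0.65 (SE 0.03, edgeR adjusted p = 3.56e-11). COL4A2 read 84.2, 82.4 and 80.3 CPM against 77.3, 77.9 and 80.6 CPM, and the groups overlapped. Its log2 change of -0.07 (SE 0.03, edgeR adjusted p = 0.0889) did not pass the test. COL4A2 did pass with upper-quartile scaling (-0.13, adjusted p = 0.00149), with library size alone (-0.21, adjusted p = 2.28e-05) and with the 1 CPM filter (-0.10, adjusted p = 0.00474), so a small decrease depends on the scaling and filter.

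COL4A1 and COL4A2 point away from each other, with 126 bases between their RefSeq starts (110307157 and 110307284 on chromosome 13). The GENCODE models given above reach farther and overlap, so this stretch lies before the RefSeq starts but within COL4A2, and in part within COL4A1, as GENCODE draws them. Windows of it are shown because the chains came apart although their RefSeq starts flank it. They are written on the plus strand, GRCh38.p14, with a CCAAT box (CCAAT) or a GC box (GGGCGG) in capitals, at chr13:110307167-110307195 and chr13:110307207-110307236:
COL4A2 CCAAT window: gggccgagctccCCAATttgttggcgctg
COL4A2 GC-box window: ccggcggtgcgcGGGCGGcgcctcaaaggg
A match is a description of the letters and not a sign of binding. Because the gene models overlap on opposite strands, and COL4A2 held 160% of the CPM of COL4A1 (COL4A1 62.7% of that of COL4A2), reads of the overlapping bases could not be told apart if the counting ignored strand.

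The kidney and lung chain genes COL4A3 and COL4A4 form a similar pair, with 418 bases between their RefSeq starts (227164624 and 227164205 on chromosome 2). COL4A3 fell from 8.87 ± 0.540 to 6.29 ± 0.410 CPM (log2 change -0.50, SE 0.08, edgeR adjusted p = 2.51e-05). COL4A4 fell from 28.5 ± 1.61 to 16.0 ± 0.327 CPM (-0.83, SE 0.05, adjusted p = 2.04e-10). In this pair both genes moved down. The 111 bases at chr2:227164454-227164564 (plus strand, GRCh38.p14), which lie between the pair outside annotated exons, hold a GC box (GGGCGG) and CACGT, the complement of ACGTG, the core of the hypoxia response element described below for PLOD2 and LOX, both in capitals:
COL4A3 upstream: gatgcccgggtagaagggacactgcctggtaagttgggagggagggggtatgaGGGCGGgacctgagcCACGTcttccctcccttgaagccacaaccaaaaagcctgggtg
COL4A5, the X-linked chain that joins COL4A3 and COL4A4, fell from 1.31 ± 0.0412 to 0.706 ± 0.197 CPM (-0.91, SE 0.20, edgeR adjusted p = 0.000834). COL4A6 had levels of 0.0904 ± 0.0368 and 0.185 ± 0.0584 CPM and was not tested.

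In collagen VIII, a lattice collagen of vessel walls and the corneal Descemet membrane, COL8A2 (ENSG00000171812.13, chromosome 1, 36095236 to 36125220, minus strand) read 6.07, 4.77 and 5.93 CPM in DOX-negative and 1.56, 1.40 and 1.59 CPM in DOX-positive libraries. This was 3.68-fold lower, a log2 change of -1.88 (SE 0.12, edgeR adjusted p = 1.05e-09). Its partner COL8A1 read 1.35, 0.838 and 0.874 CPM against 1.09, 1.45 and 1.27 CPM, and the groups overlapped. Its log2 change of 0.33 (SE 0.20, edgeR adjusted p = 0.17) did not pass, but without DOX-negative replicate 1 it was 0.60 (adjusted p = 0.0109). COL10A1, the collagen of growing cartilage, had a log2 change of -0.33 (SE 0.21, edgeR adjusted p = 0.189).

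Collagen VI forms beaded filaments around cells from COL6A1, COL6A2 and another chain. COL6A1 was the most abundant chain per kilobase of gene length, at 25.8 ± 0.434 CPM per kilobase in DOX-negative and 23.4 ± 0.577 in DOX-positive cells. It read 139.7, 135 and 137 CPM in DOX-negative and 124, 122 and 128 CPM in DOX-positive libraries, a log2 change of -0.14 (SE 0.03, edgeR adjusted p = 0.00153). The call on COL6A1 was lost without DOX-negative replicate 1 (-0.11, adjusted p = 0.0505). COL6A2 (ENSG00000142173.16, chromosome 21, 46098097 to 46132849, plus strand) read 118, 111 and 113 CPM against 70.1, 69.1 and 72.9 CPM. It was 1.61-fold lower, with a log2 change of -0.69 (SE 0.03, edgeR adjusted p = 4.57e-11), and the groups lay far apart. Of the chains that can take the remaining place in the trimer, COL6A3 had 3 to 11 reads in any library and was not a member, and COL6A6 stayed under 1 CPM (-0.31, SE 0.27, adjusted p = 0.345). COL28A1, which resembles collagen VI in its domains, rose from 2.18 ± 0.200 to 3.29 ± 0.300 CPM (0.59, SE 0.12, adjusted p = 0.000569).

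Fibril-associated collagens, which sit on the surface of fibrils, fell in 3 of the 4 tested, beside 28.9% of all genes tested. COL12A1 fell 1.73-fold, from 101 ± 4.55 to 58.4 ± 1.21 CPM (log2 change -0.79, SE 0.04, edgeR adjusted p = 1.43e-11). COL14A1 fell from 6.18 ± 0.436 to 4.38 ± 0.327 CPM (-0.49, SE 0.09, adjusted p = 0.00015). COL9A2 fell from 1.10 ± 0.235 to 0.640 ± 0.0338 CPM (-0.78, SE 0.20, adjusted p = 0.0026). Of the 4 tested, these 3 were lower without overlap between groups, beside 32.6% of all genes tested. COL20A1 had 3, 17 and 16 reads in DOX-negative and 8, 2 and 14 reads in DOX-positive libraries, overlapped and did not pass (-0.55, SE 0.69, adjusted p = 0.52). COL7A1, the anchoring fibril of epithelial basement membranes, fell from 0.597 ± 0.109 to 0.244 ± 0.101 CPM (-1.27, SE 0.30, adjusted p = 0.00186). COL18A1, a basement membrane collagen whose end fragment is endostatin, fell from 64.3 ± 3.53 to 48.3 ± 1.37 CPM (-0.41, SE 0.04, adjusted p = 1.33e-07). The transmembrane collagen COL13A1 rose instead, from 7.08 ± 0.456 to 14.02 ± 0.610 CPM (0.99, SE 0.06, adjusted p = 1.24e-09). With COL5A2 and COL28A1 it was 1 of the 3 chains called higher.

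Beside COL3A1 and COL4A6, 6 untested members had all 3 libraries at the minimum in 1 group alone, which favours members that differ. COL15A1, a relative of COL18A1, had 4, 11 and 6 reads in DOX-negative and 108, 147 and 118 reads in DOX-positive libraries. COL21A1 had 30, 50 and 43 reads against 2, 10 and 2. The mean CPM was lower in DOX-positive cells for COL9A3, COL16A1, COL21A1, COL25A1 and COL26A1. Just inside the read minimum, with 3 libraries at 10 reads, were COL3A1, COL20A1 and COL25A1 (20, 54 and 24 against 2, 8 and 6 reads). Just outside it, with 2 such libraries, were COL5A3 and COL23A1 (6, 18 and 10 against 0, 1 and 0 reads). The other 8 matching genes outside the rule were COL1A2, COL2A1, COL6A3, COL6A5, COL9A1, COL11A1, COL19A1 and COL22A1, the last with no read in any library.

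**Figure D2:**
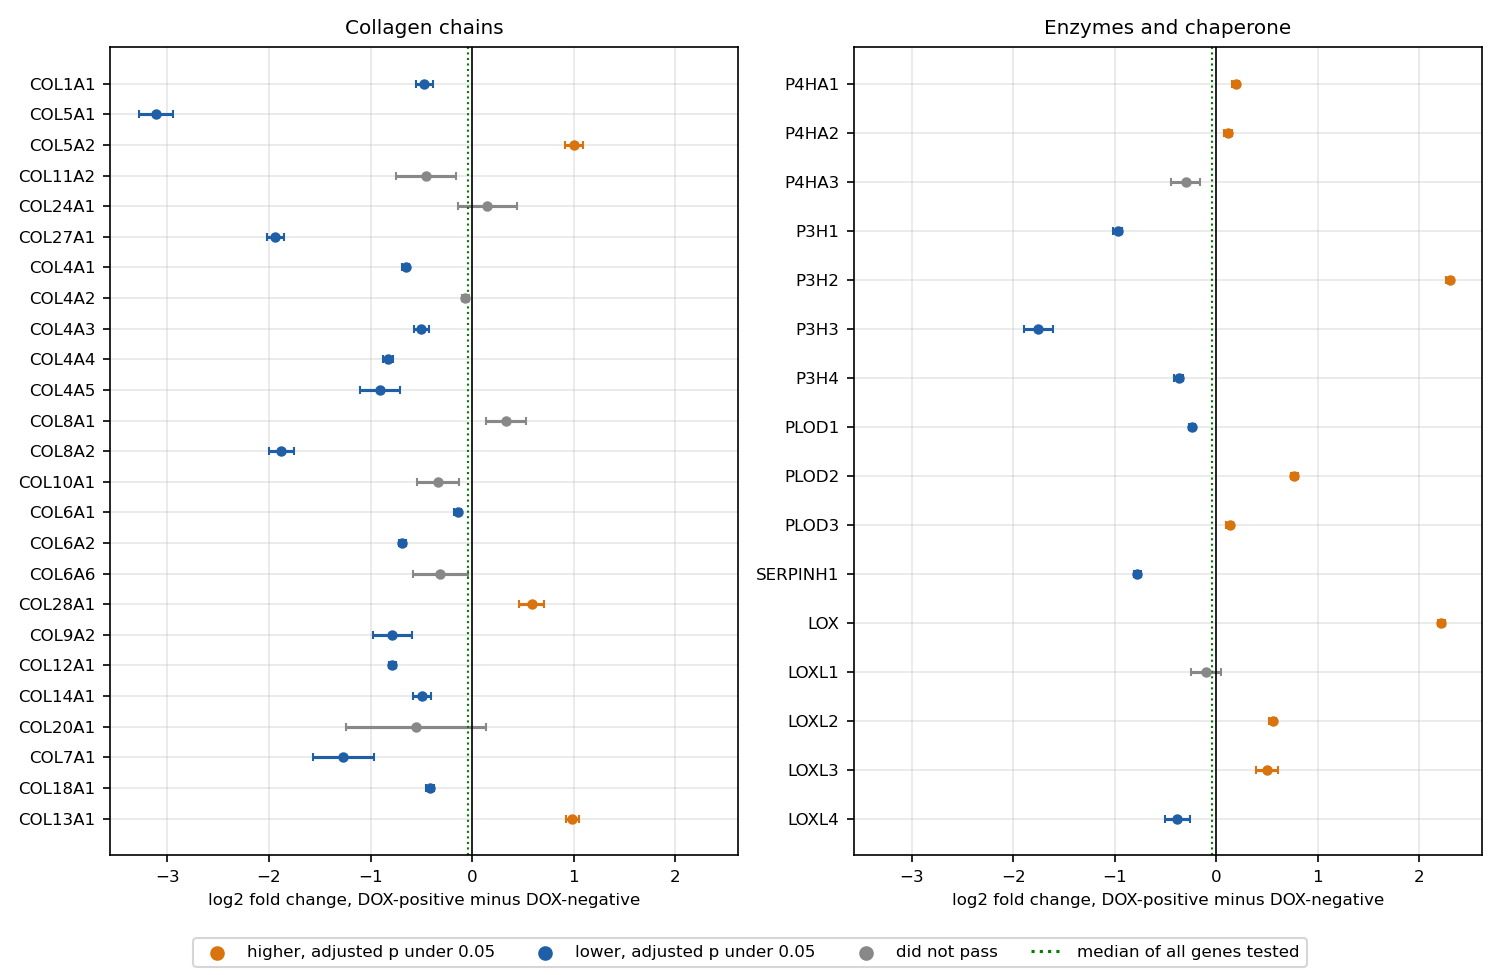
Log2 fold change of the 41 tested members (x axis, DOX-positive minus DOX-negative; bars are SE from the edgeR fit), coloured by whether the adjusted p was under 0.05; the dotted line is the median of all genes tested, -0.04. Chains lie mostly to the left, from COL5A1 at -3.11, while P3H2 at 2.30 and LOX at 2.22 lie farthest to the right.

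Because many collagens need their chains in fixed ratios, the ratio within 5 chain pairs was compared, a value that library scaling does not touch. Ratios are of CPM per kilobase, with the gene lengths of the deposited table. COL4A1 to COL4A2 was 0.966, 0.965 and 1.02 in DOX-negative and 0.651, 0.662 and 0.653 in DOX-positive libraries. COL6A1 to COL6A2 went the other way, from 1.21 ± 0.0160 to 1.76 ± 0.00763 (SD, n = 3). COL5A1 to COL5A2 moved farthest, from 0.475, 0.522 and 0.483 to 0.0280, 0.0321 and 0.0246. COL8A1 to COL8A2 rose from 0.0902 ± 0.0188 to 0.419 ± 0.0874, and COL4A3 to COL4A4 from 0.346 ± 0.0385 to 0.436 ± 0.0330. In log2 the differences were -0.59, 0.54, -4.13, 2.22 and 0.33 in that order. None of the 5 overlapped between groups. Of single genes tested, 62.4% did not overlap either, and the share for ratios of other gene pairs was not worked out. COL4A5 to COL4A6 and COL9A2 to COL9A3 were left out, because COL4A6 and COL9A3 were untested. The former ratio did not overlap between groups and the latter did. The exact two-sided permutation test gave p = 0.1 for each of the 5 (0.1 after adjustment over the 5). This is the smallest that 3 against 3 libraries allow, so this test cannot pass 0.05.

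**Figure D3:**
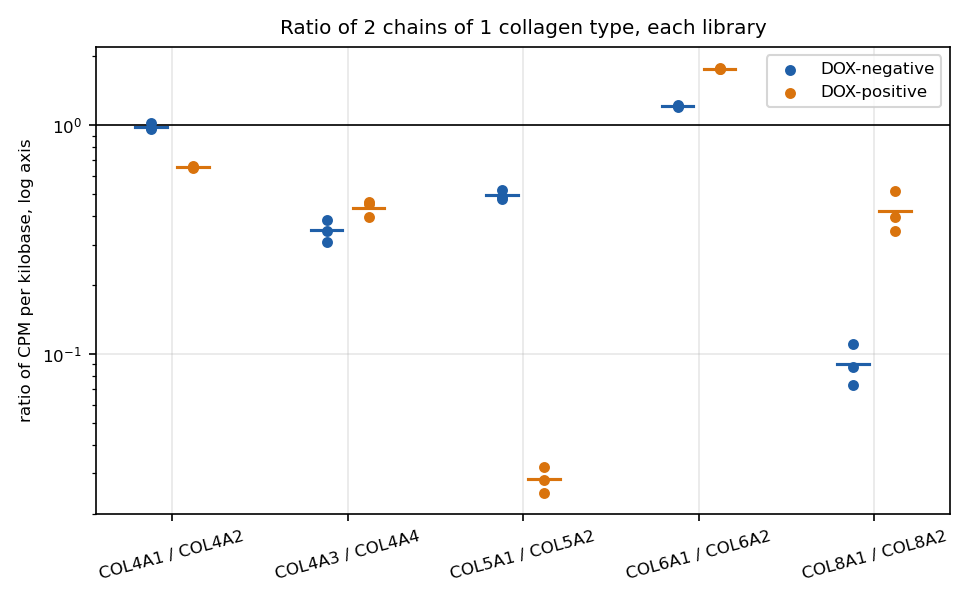
Ratio of paired collagen chains in each library (y axis, ratio of CPM per kilobase, log scale); points are libraries and short lines group means, for pairs with both chains tested. COL5A1 to COL5A2 falls from 0.493 to 0.0282 on average, and COL4A1 to COL4A2 falls from 0.985 to 0.655.

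The lysyl hydroxylases add hydroxyl groups that later carry crosslinks and sugars. PLOD2, which acts on the telopeptides (ENSG00000152952.12, chromosome 3, 146069440 to 146163653, minus strand), was the most abundant member per length, at 115 ± 5.99 CPM per kilobase in DOX-negative and 196 ± 5.77 in DOX-positive cells. It read 901, 831 and 917 CPM in DOX-negative and 1461, 1507 and 1549 CPM in DOX-positive libraries. This was 1.71-fold higher, a log2 change of 0.77 (SE 0.03, edgeR adjusted p = 8.16e-12). PLOD2 alone made up 41.0% to 43.3% of the members' summed CPM in DOX-negative and 55.9% to 57.0% in DOX-positive libraries. PLOD1, which acts on the helix, fell from 59.96 ± 0.563 to 50.7 ± 0.391 CPM (-0.24, SE 0.03, adjusted p = 2.93e-06). PLOD3, which also transfers sugars, was called higher, from 68.2 ± 1.13 to 74.7 ± 2.03 CPM (0.13, SE 0.03, adjusted p = 0.00212), but missed the threshold with upper-quartile scaling (0.07, adjusted p = 0.0588) and turned to -0.012 with library size alone.

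PLOD2 and LOX are textbook targets of the hypoxia-inducible factors, whose response element holds the core ACGTG, and both rose here. Stretches before a RefSeq start of each are shown for that reason, 5′ to 3′ on the minus strand (RefSeq, GRCh38.p14), with ACGTG or its complement CACGT in capitals. That of LOX leaves out the bases nearest the RefSeq start (122078259), which lie in a GENCODE exon. Further ACGTG matches there, 98 to 94 and 42 to 38 bases before the start, are not shown. The stretch of PLOD2 is chr3:146161185-146161434, which lies within the longer GENCODE model of the gene but in none of its exons, and that of LOX is chr5:122078361-122078509:
PLOD2: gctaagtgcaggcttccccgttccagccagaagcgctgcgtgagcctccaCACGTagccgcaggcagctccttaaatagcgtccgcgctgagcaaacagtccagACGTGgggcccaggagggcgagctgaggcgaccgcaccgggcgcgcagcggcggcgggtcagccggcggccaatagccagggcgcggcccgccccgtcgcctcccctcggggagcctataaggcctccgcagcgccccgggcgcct
LOX: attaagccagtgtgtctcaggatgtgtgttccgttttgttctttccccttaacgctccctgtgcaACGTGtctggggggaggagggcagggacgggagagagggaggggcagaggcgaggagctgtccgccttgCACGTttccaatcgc
P4HA1, known as a target of the same factors, holds 1 match before its RefSeq start, at chr10:73096936-73096964 on the minus strand, within the GENCODE model:
P4HA1 window: tgtgatcgagctCACGTagcgagggctgc
Within 250 bases upstream of the RefSeq start, searched on both strands, ACGTG was found in 8 of the 38 members with an entry (21.1%) and in 18.6% of 27305 promoters. It was present in 3 of 9 members called higher (PLOD2, LOX and P4HA1) and 3 of 17 called lower (COL5A1, COL12A1 and COL4A3). The GC box GGGCGG was found in 20 of 38 members (52.6%) and 42.2% of promoters, in 13 of the 17 lower and 3 of the 9 higher members. The CCAAT box was found in 9 of 38 (23.7%) and 33.0% of promoters, in 2 of the 17 lower and 5 of the 9 higher members. These counts are descriptions with no test.

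Prolyl 4-hydroxylases make the hydroxyproline that keeps the triple helix stable, and their catalytic subunits moved little. P4HA1 read 77.3, 72.3 and 74.0 CPM in DOX-negative and 84.4, 85.5 and 85.2 CPM in DOX-positive libraries. It was called higher (log2 change 0.19, SE 0.03, edgeR adjusted p = 0.000106), though with library size alone it was 0.05 (adjusted p = 0.206). P4HA2 read 27.5, 27.1 and 26.7 CPM against 29.4, 30.1 and 28.7 CPM and was called higher (0.12, SE 0.04, adjusted p = 0.0119). The call on P4HA2 was lost with upper-quartile scaling (0.06, adjusted p = 0.18) and with the 1 CPM filter (0.08, adjusted p = 0.0509), and its sign turned with library size alone (-0.026). P4HA3 did not pass (-0.30, SE 0.14, adjusted p = 0.0844), but was lower past the threshold with upper-quartile scaling (-0.36, adjusted p = 0.0435), with library size alone (-0.44, adjusted p = 0.0158) and without DOX-positive replicate 2 (-0.43, adjusted p = 0.029).

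Prolyl 3-hydroxylation touches few prolines, and its family changed makeup. P3H2, which prefers basement membrane collagen (ENSG00000090530.10, chromosome 3, 189956728 to 190122437, minus strand), read 12.1, 12.5 and 11.96 CPM in DOX-negative and 60.1, 58.1 and 61.5 CPM in DOX-positive libraries. It was 4.92-fold higher, with a log2 change of 2.30 (SE 0.04, edgeR adjusted p = 1.35e-16), the highest among tested members. P3H1, which acts on fibrillar collagen in a complex with CRTAP and PPIB (ENSG00000117385.16, chromosome 1, 42746335 to 42767084, minus strand), went the other way, from 26.4, 27.0 and 25.6 CPM to 13.8, 13.5 and 13.1 CPM. It was 1.96-fold lower (-0.97, SE 0.04, adjusted p = 1.39e-11). P3H3 (ENSG00000110811.20, chromosome 12, 6828410 to 6839851, plus strand) read 4.63, 4.51 and 3.99 CPM against 0.967, 1.502 and 1.41 CPM, 3.38-fold lower (-1.75, SE 0.15, adjusted p = 2.89e-08). GPR162, a same-strand neighbour that overlaps P3H3, held 20.6% of its CPM and fell with it (-3.12). P3H4, which works with P3H3 and PLOD1 and has no known hydroxylase activity, fell from 26.9 ± 1.56 to 20.8 ± 0.368 CPM (-0.37, SE 0.05, adjusted p = 2.85e-06). Of the family's level per kilobase, P3H2 took 15.3% ± 0.450 in DOX-negative and 57.6% ± 0.983 in DOX-positive cells. The share of P3H1 went from 27.2% ± 0.489 to 10.7% ± 0.405, and that of P3H4 from 50.9% ± 0.716 to 30.3% ± 0.622. P3H2 thus held a smaller share than P3H1 in DOX-negative libraries and a larger share in DOX-positive ones.

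SERPINH1 (ENSG00000149257.14, chromosome 11, 75562056 to 75572783, plus strand), the chaperone that binds procollagen in the endoplasmic reticulum, fell together with most chains. It read 97.8, 96.0 and 96.8 CPM in DOX-negative and 57.2, 54.1 and 58.5 CPM in DOX-positive libraries. It was 1.71-fold lower, with a log2 change of -0.78 (SE 0.03, edgeR adjusted p = 8.45e-12). A processed pseudogene, SERPINH1P1, resembles it, and how the counting treated reads shared by the copies is not given in the sources used here.

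Lysyl oxidases start the crosslinks between collagen molecules, and 3 of 5 rose. Over all genes tested 27.6% were called higher, and 37.6% of those reaching 1 CPM in 3 libraries. LOX (ENSG00000113083.14, chromosome 5, 122063195 to 122078360, minus strand) read 12.6, 12.6 and 12.7 CPM in DOX-negative and 56.8, 59.4 and 60.04 CPM in DOX-positive libraries. It was 4.65-fold higher, with a log2 change of 2.22 (SE 0.04, edgeR adjusted p = 1.44e-16), and the groups lay far apart. SRFBP1 overlaps LOX on the opposite strand with 70.2% of its CPM over all libraries and a log2 change of 0.48. In DOX-negative libraries it had more reads than LOX (2062, 2975 and 1996 against 1249, 1852 and 1163). In DOX-positive libraries it had fewer (3099, 4294 and 2810 against 5986, 8587 and 5949). LOXL2, which also acts on collagen IV, read 145, 139 and 139 CPM against 211, 201 and 209.9 CPM, 1.47-fold higher (0.56, SE 0.03, adjusted p = 5.87e-10). LOXL3 rose from 2.64 ± 0.0894 to 3.73 ± 0.267 CPM (0.50, SE 0.11, adjusted p = 0.000784), and HTRA2 overlaps it on the opposite strand with 420% of its CPM. LOXL4 was called lower (-0.38, SE 0.12, adjusted p = 0.0125), a call lost without DOX-negative replicate 2 (adjusted p = 0.0514) or without DOX-positive replicate 3 (adjusted p = 0.0649). LOXL1, which is known for crosslinking elastin, did not pass (-0.10, SE 0.15, adjusted p = 0.575). Of the family's level per kilobase, LOX took 8.27% ± 0.212 in DOX-negative and 22.6% ± 0.802 in DOX-positive cells, and LOXL2 85.5% ± 0.461 and 73.7% ± 0.942. LOXL2 thus remained the largest share in each library, although LOX changed more.

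**Figure D4:**
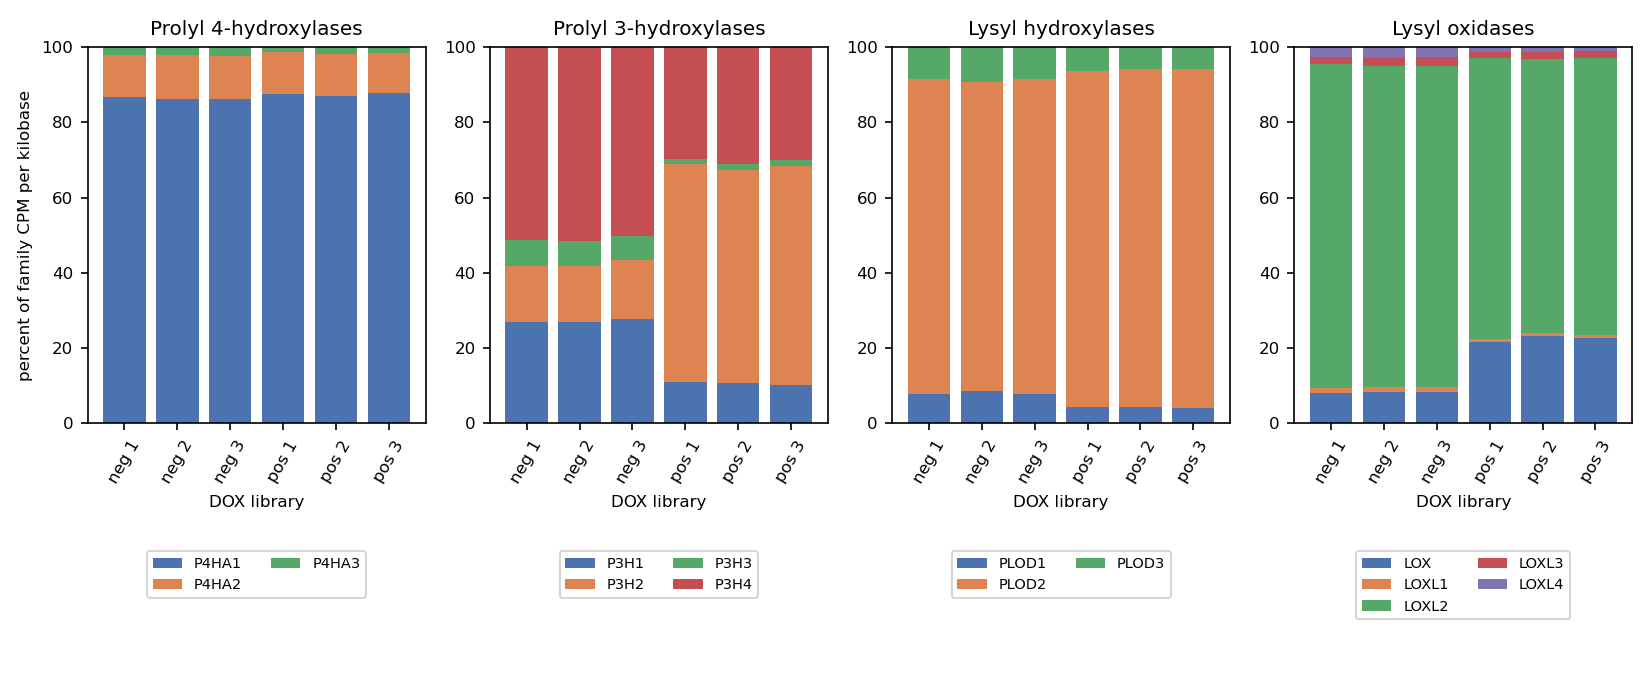
Makeup of each enzyme family in each library (y axis, percent of the family's summed CPM per kilobase; each bar is 1 library, DOX-negative 1 to 3 and DOX-positive 1 to 3). P3H2 grows from 15.3% to 57.6% of the prolyl 3-hydroxylase family on average and LOX from 8.27% to 22.6% of the lysyl oxidases, while PLOD2 and P4HA1 hold most of their families in both groups.

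Of the 49 members, 16 overlap another gene whose CPM was at least 10% of their own, 13 of them with an opposite-strand gene. The libraries were made with a stranded kit, but whether the counting used strand is not given in the sources used here, so those reads cannot be told apart with certainty. P3H2 overlaps P3H2-AS1 on the opposite strand, which had 12, 24 and 14 reads in DOX-negative and 79, 124 and 86 reads in DOX-positive libraries, 1.35% of the CPM of P3H2. The overlapping gene outweighed the member by far for COL9A3 (TCFL5), COL10A1 (NT5DC1, 5462% of its CPM), P4HA3 (PPME1, 3023%) and LOXL1 (LOXL1-AS1, 828%, log2 change -0.72). ENTPD4 overlaps LOXL2 on the same strand with 53.8% of its CPM and a log2 change of 0.0034, and ZNHIT1 overlaps PLOD3 with 30.9% and 0.67. SLC19A1 overlaps COL18A1 with 68.3% of its CPM.

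Genes that work with the members were read from 7 lists of 87 genes, of which 68 were tested, 27 were higher (39.7%), 28 lower (41.2%) and 13 not called, with a median log2 change of -0.05. These shares stand beside 27.6% and 28.9% of all genes tested, and among genes of at least 1 CPM the 26 higher and 27 lower of 60 stand beside 37.6% and 36.3%. The counts of each list that follow are to be read against the same shares. Among 8 folding and modification partners, 4 were higher and 2 lower. CRTAP, the partner of P3H1, fell from 196 ± 7.00 to 87.0 ± 1.27 CPM (-1.17, SE 0.04, edgeR adjusted p = 8.14e-14). FKBP10, a prolyl isomerase that supports telopeptide lysyl hydroxylation, fell from 53.8 ± 0.896 to 40.5 ± 0.709 CPM (-0.41), and COLGALT1, which adds galactose to hydroxylysine, rose from 92.2 ± 1.20 to 138 ± 1.68 CPM (0.59). PPIB, the remaining protein of the P3H1 complex, stood at 25.8 ± 0.670 and 25.6 ± 0.641 CPM and did not pass (-0.010, SE 0.04, adjusted p = 0.84). P3H1 and CRTAP thus fell, while the groups overlapped for PPIB. Of 12 procollagen export genes, 6 were higher, among them the coat protein SEC23B (0.49, adjusted p = 1.62e-09) and KLHL12, which enlarges the coat (0.39, adjusted p = 1.31e-08), and 4 were lower. CREB3L1, a transcription factor known to act on collagen and secretory genes, fell from 1.23 ± 0.116 to 0.164 ± 0.0143 CPM (-2.88, SE 0.22, adjusted p = 8.7e-09).

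Of 10 genes for propeptide processing, 6 were tested and all 6 were called lower, with a median log2 change of -0.42. BMP1, the C-propeptide protease, fell from 69.7 ± 1.54 to 50.9 ± 1.10 CPM (-0.45, SE 0.03, edgeR adjusted p = 2.88e-09), and its enhancer PCOLCE2 from 12.2 ± 0.474 to 9.30 ± 0.248 CPM (-0.39, adjusted p = 2.46e-05). ADAMTS14, an N-propeptide protease, fell from 0.973 ± 0.107 to 0.483 ± 0.0427 CPM (-1.01, SE 0.19, adjusted p = 0.000286). Its relatives ADAMTS2 (16, 38 and 18 against 4, 4 and 6 reads) and ADAMTS3 (42, 48 and 35 against 2, 16 and 7 reads) reached 10 reads in all 3 libraries of the DOX-negative group alone and were given no call. With the 1 CPM filter 4 of the list were tested and 4 called lower, and 3 were called without DOX-negative replicate 1 or without DOX-positive replicate 2.

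Of 11 collagen receptors, 10 were tested, 4 were higher and 2 lower. ITGA2, the collagen-binding integrin subunit, rose from 331 ± 18.5 to 1558 ± 42.7 CPM (2.23, SE 0.04, edgeR adjusted p = 1.29e-16), and ITGA1, its counterpart for collagen IV, from 27.6 ± 2.04 to 64.6 ± 0.0631 CPM (1.23, adjusted p = 5.57e-13). The receptor kinase DDR1 rose from 101 ± 2.74 to 129 ± 2.51 CPM (0.36, adjusted p = 8.92e-08). MRC2, which takes up collagen for degradation, fell from 82.5 ± 2.87 to 31.8 ± 0.722 CPM (-1.37, adjusted p = 1.1e-14). Receptors thus moved in both directions. Of 13 degrading enzymes and inhibitors, 9 were tested, 5 higher and 2 lower. The collagenase MMP1 rose from 3.78 ± 0.211 to 15.5 ± 0.996 CPM (2.04, adjusted p = 4.89e-13), membrane-bound MMP14 from 81.2 ± 1.60 to 131 ± 2.69 CPM (0.69) and the inhibitor TIMP1 from 74.2 ± 0.697 to 101 ± 4.597 CPM (0.45).

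Of 16 collagen-binding matrix proteins, 7 were tested, 2 were higher and 4 lower. NID1, which links collagen IV to laminin, fell from 59.3 ± 1.65 to 31.5 ± 0.410 CPM (-0.91, SE 0.03, edgeR adjusted p = 9.84e-13). TNXB, a fibril-binding tenascin, fell from 16.6 ± 0.614 to 5.67 ± 0.0614 CPM (-1.55), and the small proteoglycan BGN from 2.51 ± 0.199 to 0.358 ± 0.0474 CPM (-2.80). Of 17 transcription factors known to act on collagen or hydroxylase genes, 16 were tested, 6 were higher and 8 lower. CIITA fell from 79.1 ± 1.52 to 22.2 ± 0.633 CPM (-1.83, SE 0.03, adjusted p = 4.92e-16) and RFX5 from 152 ± 3.35 to 128 ± 0.709 CPM (-0.24, adjusted p = 5.84e-06), in cells where COL1A1 fell as well. SMAD2, a mediator of TGF-beta signals, fell from 405 ± 15.7 to 209 ± 2.47 CPM (-0.95). HIF1A rose from 796 ± 32.6 to 1353 ± 25.1 CPM (0.76, SE 0.03, adjusted p = 1.77e-12), beside PLOD2 and LOX. Whether any of these factors acted on the members was not tested.

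**Figure D5:**
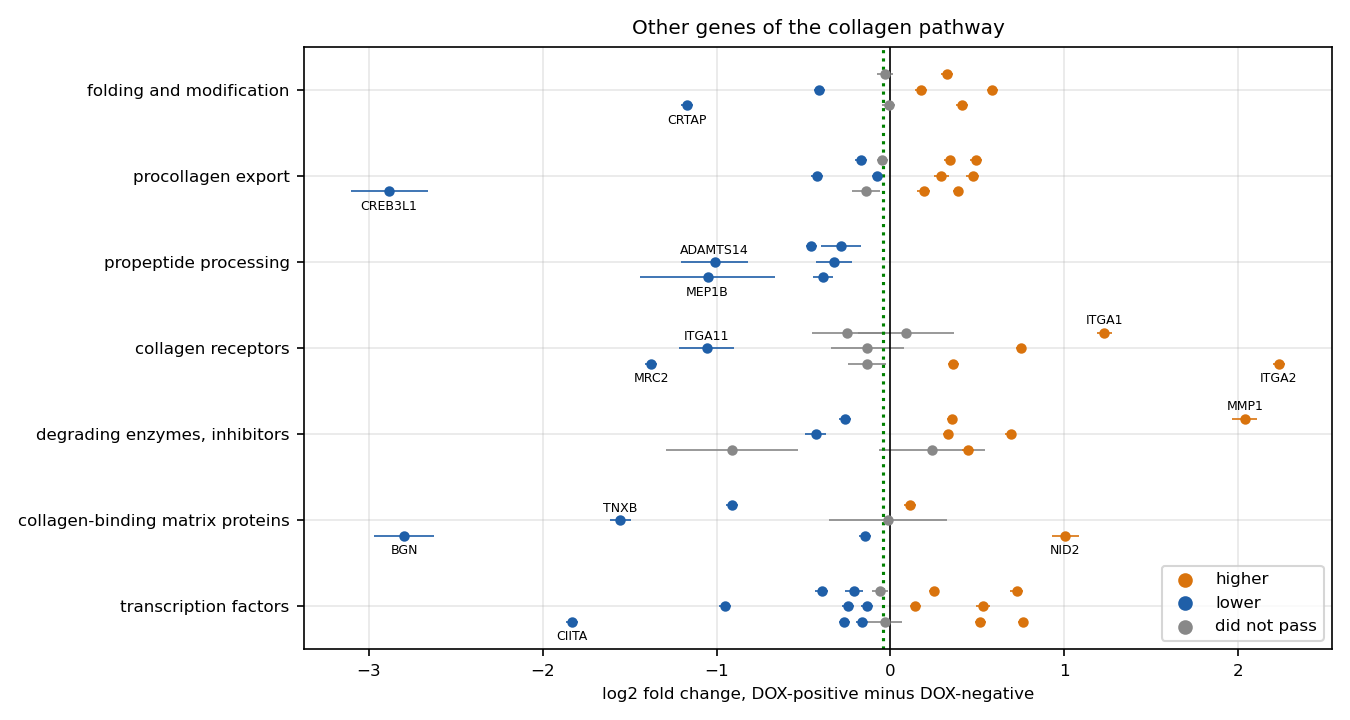
Log2 fold change of the 68 tested genes of the 7 partner lists (x axis, DOX-positive minus DOX-negative; bars are SE from the edgeR fit), with 1 row per list, colours for adjusted p under 0.05 and names for the genes that changed most; the dotted line is the median of all genes tested, -0.04. The 6 tested propeptide-processing genes lie left of 0, while the receptors spread from MRC2 at -1.37 to ITGA2 at 2.23.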

How the data were processed

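The values deposited by the authors are raw counts of reads for each gene in each library, as whole numbers, beside a gene length in bases. Per the labels' protocols, RNA was extracted with Trizol and libraries were made with TruSeq Stranded mRNA. Per the submitters' processing notes, the build was GRCh38.p7 and the tools were STAR 2.7.9a, CASAVA 1.8.2 and DESeq2 1.24.0, with no role stated. What counted the reads, on which annotation and with which strand setting, is not given in the sources used here, so overlapping genes and near-identical copies are uncertain.

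Groups and replicate numbers came from the sample titles. Genes were kept by filterByExpr (minimum count 10, minimum total 15) and tested in R 4.3.3 with edgeR 4.0.16 (quasi-likelihood, TMM scaling), with group as the only term. P-values were adjusted by Benjamini-Hochberg over 24695 genes. The SE of a log2 change is its size over the root of the F statistic. Levels of different genes were compared as CPM per kilobase of the deposited length, which can include bases that the main transcript lacks. Sums of CPM over members, and shares of those sums, were not scaled by length. Ratios of chains were tested by an exact permutation test over libraries with scipy 1.17.1. Positions came from GENCODE 29 and promoters from the RefSeq table for GRCh38.p14, which held 38 of the 49 members. The labels speak of triplicate cultures, so p-values measure only the spread between these samples, which may be technical. Chi-square per degree of freedom was 6.40 to 20.8 within groups and 214 to 285 across groups, so no libraries agreed within sampling noise.

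The members and partner lists were chosen with earlier results of these data known. All members could be named. Values in each library were given for members of at least 1 CPM in either group with an adjusted p under 0.05 and at least a 2-fold change. They were also given for 13 genes set whatever their result, some of which, such as COL5A1 and LOX, meet that rule too. Outside both, they were given for P3H1 and COL8A1, and as reads for some genes of few reads and some overlapping genes. Members and partner genes for which 1 group alone had 10 reads in all 3 libraries were given no call and are termed untested. Those that passed the filter were still in the fit and among the 24695 genes. Partner lists gave their 3 smallest p-values among the genes tested, and PPIB, chosen after its values were seen, and CIITA, RFX5, ITGA1, ITGA2 and DDR1. Other members were also given full statistics in the text where they illustrate a role. The alternatives changed the scaling (upper quartile, size factors of DESeq2, library size alone), the filter (none, or 1 CPM in 3 libraries), the test (DESeq2 1.42.0 Wald, limma 3.58.1 voom), the terms (a block for replicate number) and the libraries (leaving out each in turn). The edgeR script was tested on simulated data. Figures were drawn with matplotlib 3.10.9.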

Additional observations from a re-analysis of the deposited data

How the results depend on the processing

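The count of members called stayed within 1.5 times under each alternative run: 8 higher and 23 lower with library size alone, 9 and 23 with upper-quartile scaling, 10 and 20 with the 1 CPM filter, and 11 to 12 and 20 to 22 with a library left out, against 11 and 21. Over all genes, library size alone called 4689 higher and 9579 lower against 6825 and 7132, and shifted the median of all genes by -0.14. With it, P4HA2 turned to -0.026 and PLOD3 to -0.012 in log2. Members whose call changed with a setting are named with their values in the report. Of the uncalled members of few reads, COL24A1 (-0.14 to 0.37) and COL20A1 (-1.32 to 0.028) changed sign with a library left out, and COL11A2 ran from -0.64 to -0.18, COL6A6 from -0.48 to -0.18 and COL10A1 from -0.39 to -0.20. The cause was not tested. Library numbers did not pair the samples (correlations of deviations -0.07, -0.03 and 0.01). With the replicate number as a block, 11 members were higher and 21 lower, and 6670 and 6833 genes. Of the chain ratios, COL5A1 to COL5A2 ran from -4.23 to -4.04 and COL4A1 to COL4A2 from -0.60 to -0.56 in log2 with a library left out. A minimum of 10 reads in all 6 libraries left 40 members, and 50 reads in 3 libraries left 38. Below about 1 CPM the depth limits calls: COL6A6, COL11A2 and COL24A1 have an SE of 0.27 to 0.30, so changes of that size were not detectable.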
